A study of Mus musculus with 48 samples.

Results

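The 10 genes described here mark the lymphocytes that live between the epithelial cells of the gut, and cytotoxic lymphocytes in general. They are Gzma, Gzmb, Itgae, Cd7, Cd8a, Klrd1, Nkg7, Cd160, Ccl5 and Ccl25, and they were found by their symbol in 6 tissue tables that together list 15541 genes. All 10 were listed in the villi of the duodenum, jejunum and ileum and in subcutaneous white adipose tissue (WAT). Only Ccl5 and Ccl25 were listed in the liver, and only Ccl25 in gastrocnemius skeletal muscle. Since 9 of the 10 are expressed by lymphocytes and Ccl25 is made by the epithelium, the 9 are called the lymphocyte genes below.

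The libraries came from male C57Bl6 mice with diet-induced obesity on a high fat diet that received RYGB or sham surgery and were killed 9 days later. Both groups were given an elemental liquid diet after surgery, were fasted overnight and were killed at 10 am. The labels also mention a return to the high fat diet, without saying when. In RYGB the bowel is rearranged so that food no longer passes through the duodenum, and the labels do not say which limb of the rearranged bowel gave the jejunal villi. The duodenum and the jejunum had 4 sham and 3 RYGB libraries each, the ileum 5 and 5, and liver, WAT and muscle 4 and 4. The villi were scraped off after 5 minutes in ice-cold EDTA, so each villus library holds epithelium together with any lymphocytes that came off with it. The labels do not say whether libraries with the same number came from the same mouse, or whether the samples of a group were separate animals, so the p-values measure only the spread between these samples.

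Intraepithelial lymphocytes are mostly T cells that carry CD8 alpha and sit above the basement membrane between enterocytes. They are held there by the integrin chain encoded by Itgae, which pairs with the beta 7 chain and binds E-cadherin, and many store granzymes as ready-made cytotoxic granules. The epithelium feeds and calls them with signals such as interleukin-15 and the chemokine encoded by Ccl25, whose receptor is Ccr9.

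The stretches upstream of 4 of the genes are shown as examples. Gzma, Gzmb and Cd160 moved in the villi with all the other lymphocyte genes, while Ccl25 stood apart from them. Each window shown holds at least 1 of the motifs marked below, so the windows shown do not stand for all 8. RefSeq start sites of the GRCm38.p6 assembly were matched for 6 of the 10 genes, with 8 start sites in all. Each line gives the 250 bases that end just before a start site, read 5′ to 3′ on the strand of the gene. Gzma lies at chr13:113093825-113100981 and Gzmb at chr14:56258838-56262260, both on the minus strand of GRCm38. Cd160 lies at chr3:96798763-96829351 on the minus strand and Ccl25 at chr8:4325210-4360020 on the plus strand. The windows shown are chr13:113100982-113101231 for Gzma, chr14:56262335-56262584 for Gzmb, chr3:96814522-96814771 for the second start of Cd160 and chr8:4349338-4349587 for the second start of Ccl25. The windows of Cd160 and Ccl25 lie in introns of the longest annotated transcripts.
Gzma: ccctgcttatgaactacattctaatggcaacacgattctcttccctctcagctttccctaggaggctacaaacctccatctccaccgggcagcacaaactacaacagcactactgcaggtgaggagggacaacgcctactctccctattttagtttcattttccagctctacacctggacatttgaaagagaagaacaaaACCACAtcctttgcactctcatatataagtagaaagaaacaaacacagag
Gzmb: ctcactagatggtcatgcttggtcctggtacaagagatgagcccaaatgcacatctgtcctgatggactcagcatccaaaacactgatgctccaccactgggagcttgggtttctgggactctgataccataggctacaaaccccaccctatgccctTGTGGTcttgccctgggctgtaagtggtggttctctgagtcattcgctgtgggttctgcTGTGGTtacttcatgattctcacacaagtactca
Cd160: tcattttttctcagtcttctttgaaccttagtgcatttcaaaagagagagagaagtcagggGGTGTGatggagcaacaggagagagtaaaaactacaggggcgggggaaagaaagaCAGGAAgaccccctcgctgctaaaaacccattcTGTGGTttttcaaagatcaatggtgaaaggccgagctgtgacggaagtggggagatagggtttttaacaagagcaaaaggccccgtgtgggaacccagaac
Ccl25: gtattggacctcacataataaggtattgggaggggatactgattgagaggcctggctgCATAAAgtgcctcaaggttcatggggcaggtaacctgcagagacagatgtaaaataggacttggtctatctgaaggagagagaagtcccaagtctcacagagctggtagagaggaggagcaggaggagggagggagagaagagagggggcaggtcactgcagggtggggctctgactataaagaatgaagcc
The capitals mark 4 short motifs, searched on both strands: TGTGGT, a core read by Runx factors, GGTGTG, a core read by T-box factors, CAGGAA, a core read by Ets factors, and TTTATG, a core read by Cdx factors. The Runx letters stood in 5 of the 8 windows of the matched genes (in Gzma, Gzmb, Nkg7 and both of Cd160), and in 14% of the 32851 windows of all genes. In Gzma the match lay 50 to 45 bases before the start, and in Gzmb there were 2 matches, at 93 to 88 and at 34 to 29 bases. The T-box letters stood in 3 of the 8 windows (Nkg7 and both of Cd160) against 16.3% of all windows, the Ets letters in 2 (Nkg7 and the second of Cd160) against 25.7%, and the Cdx letters in 1, 192 to 187 bases before the second start of Ccl25, against 10.8%. At the first start of Cd160, which is not shown, the Runx and the T-box match overlapped. Cd8a and the first start of Ccl25, which are not shown either, had none of the 4 motifs. A match of 6 letters is a description of the sequence and was not related to binding.

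Levels are given in CPM, which scales the reads of a gene to the total of its library, as deposited and rounded to 0.1. Differences are RYGB minus sham on the log2(CPM + 1) scale, which understates the change of genes with few counts, and a gene was called when its p from limma, adjusted by the method of Benjamini and Hochberg over all genes of the tissue, was under 0.05. Each tissue was normalised and fitted on its own, so levels set side by side across tissues are not tested. Of all genes tested, 1 was called in the duodenum, 1065 in the jejunum, 856 in the ileum, 1016 in the liver, 4980 in WAT and 0 in muscle, where 1746 had an unadjusted p under 0.05. The total count of each library is unknown, and the listed CPM summed to 925122 to 998777. Each listed gene was at 1 CPM or more in a number of libraries no smaller than the smaller group, so an unlisted gene may still be expressed below that level. A gene under 1 CPM in most libraries of a group is listed mainly through the other group, which favours a difference in that direction. Among the members this holds for Cd160 in the jejunum and Nkg7 in the ileum, through sham, and for Cd160 in WAT, through RYGB.

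In the jejunal villi all 9 lymphocyte genes fell after RYGB, and in each of them every RYGB library lay below every sham library. Lower calls made up 5.17% of the 10854 genes tested there, and 12.5% of all genes had every RYGB library below every sham library. The median difference of the 9 genes was -1.70, against -0.04 over all genes. The group means of sham were 2.83 to 5.33 times those of RYGB. Fewer lymphocytes in the scraped villi and less RNA of these genes in each lymphocyte cannot be told apart in such bulk libraries.

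The granzymes are the serine proteases that cytotoxic lymphocytes deliver into their targets, and Gzma had the largest difference of the 10 genes in the jejunum. Gzma, which encodes granzyme A, was at 77.1, 51.7, 67.5 and 169.2 CPM in the 4 sham libraries and at 14.1, 20.9 and 16.4 CPM in the 3 RYGB libraries. The highest RYGB library was thus well under the lowest sham library. The mean was 91.4 ± 52.9 CPM (SD, n = 4) in the sham group and 17.1 ± 3.46 CPM (SD, n = 3) in the RYGB group, a difference of -2.22 ± 0.35 (SE) with an adjusted p of 0.00482. Gzmb, which encodes granzyme B, was at 31.7, 14, 27.1 and 42 CPM in sham and at 4.3, 11 and 8.7 CPM in RYGB. Its groups came closer to each other, since the lowest sham library was at 14 and the highest RYGB library at 11 CPM. The difference was -1.70 ± 0.38 (adjusted p = 0.0219). Nkg7, a protein of the granule membrane, had a median of 3.9 CPM in sham and 1.2 CPM in RYGB, with a difference of -1.26 ± 0.33 (adjusted p = 0.0396).

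The RNA of genes for surface proteins of these cells, and that of Ccl5, fell alongside. Cd8a, the alpha chain of the CD8 coreceptor, was at 16.4, 13.3, 13.5 and 21.2 CPM in sham and at 2.1, 3.6 and 5.7 CPM in RYGB. The sham libraries were close together, and the difference of -1.88 ± 0.29 had the smallest adjusted p of the 10 genes (0.00411). Itgae was at 11.2, 10.6, 13 and 14.7 CPM in sham and at 2.3, 3.9 and 6.5 CPM in RYGB. Its sham values spread by only 1.39-fold, the least of the 9 genes, and its difference was -1.42 ± 0.28 (adjusted p = 0.0133). Cd7, an immunoglobulin-like receptor of T and natural killer cells, was at 13.7 to 32.2 CPM in sham and 3.3 to 7 CPM in RYGB and fell by 1.79 (SE 0.33, adjusted p = 0.00913). Klrd1, which encodes the CD94 chain of killer lectin-like receptors, was at 3 to 7.4 CPM in sham and 0.7 to 1.9 CPM in RYGB and differed by -1.32 ± 0.29 (adjusted p = 0.0205). Cd160, a receptor for the herpesvirus entry mediator, had the smallest difference of the 9, at -0.95 ± 0.25 (adjusted p = 0.0398), and the lowest level, with means of 2.83 and 1 CPM. Ccl5, a chemokine that cytotoxic T cells store and secrete, was at 19, 12.5, 15 and 40.8 CPM in sham and at 3.1, 4.1 and 6.5 CPM in RYGB, which gave -1.93 ± 0.38 (adjusted p = 0.0127). Sham replicate 4 was the highest library and RYGB replicate 1 the lowest for all 9 genes. Without RYGB replicate 1, 5 of the genes were still called (Gzma, Itgae, Cd7, Cd8a and Ccl5), and these 5 were called whichever single library was left out. RYGB replicate 2 was the only library of its lane, and 6 genes were called without it.

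**Figure D1:**
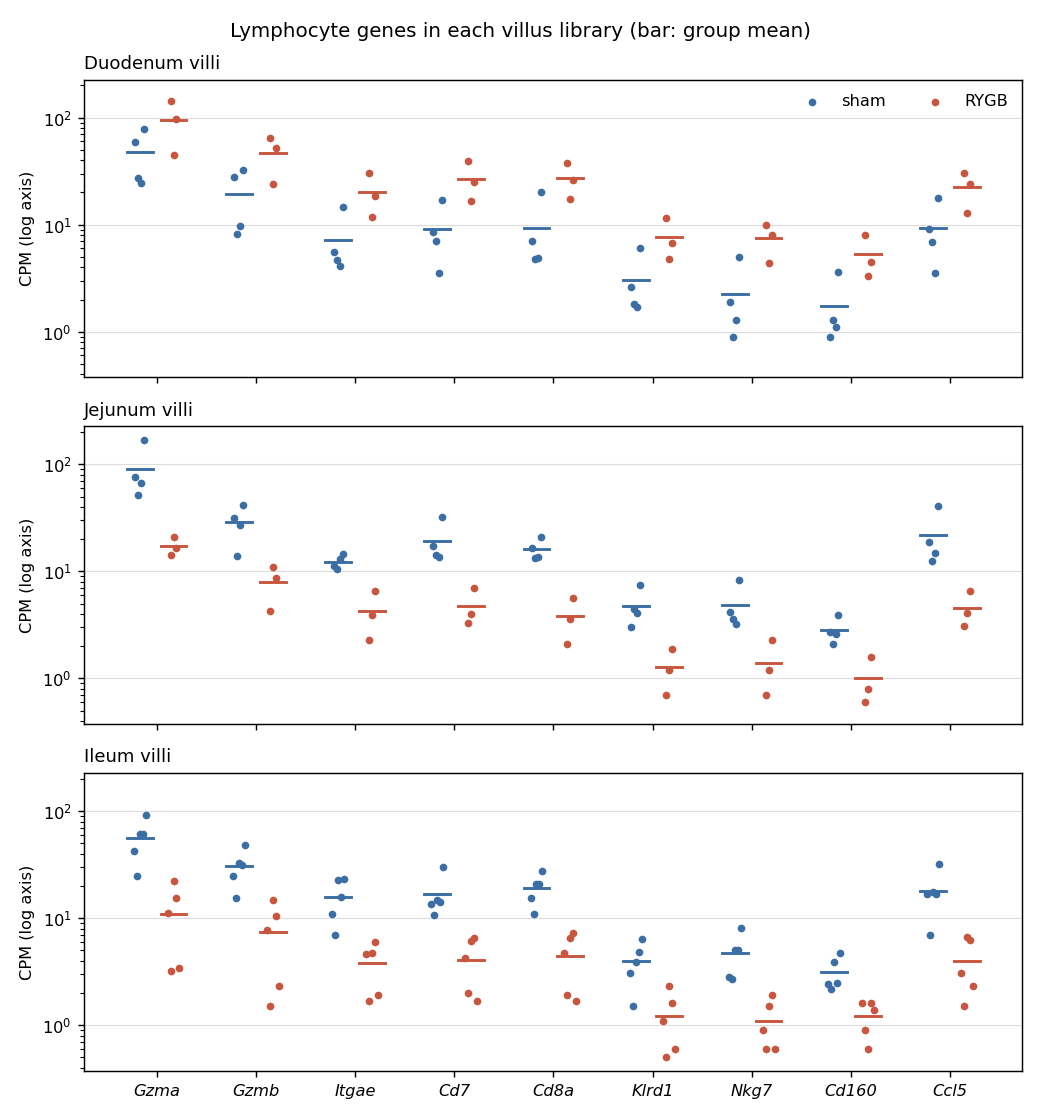
CPM of the 9 lymphocyte genes on a log axis in every villus library of the sham (blue) and RYGB (red) groups, with 1 panel for each part of the gut and a bar at each group mean. In the jejunum no RYGB point reaches a sham point, in the ileum only Klrd1 overlaps, and in the duodenum the RYGB means lie above the sham means while sham replicate 4 reaches into the RYGB range.

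In the ileal villi the same 9 genes were lower after RYGB, and all 9 were called, where 5.68% of the 10735 genes tested were called lower. The median difference was -1.83, against -0.09 over all genes, and sham means were 2.57 to 5.12 times those of RYGB. For 8 of the 9 genes every RYGB library lay below every sham library, against 6.92% of all genes, and the exception was Klrd1. All 5 RYGB libraries of the ileum were run in lane 1 and the sham libraries in lanes 2 and 3, and the effects of surgery and lane cannot be told apart here.

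Gzma was at 42.6, 25, 61.8, 61.4 and 92 CPM in the 5 sham libraries of the ileum and at 11.1, 3.2, 22.2, 15.3 and 3.4 CPM in the 5 RYGB libraries. The RYGB libraries differed among themselves by 6.94-fold, more than the 3.68-fold spread in sham, but none reached the lowest sham library. The difference was -2.45 ± 0.49 (adjusted p = 0.0145). Gzmb was at 15.5 to 48.6 CPM in sham and at 1.5 to 14.9 CPM in RYGB, so that its highest RYGB library stood just under its lowest sham library. It fell by 2.16 (SE 0.48, adjusted p = 0.0222). Cd8a was at 15.5, 10.9, 21, 20.7 and 27.8 CPM in sham and at 4.7, 1.9, 6.5, 7.2 and 1.7 CPM in RYGB. Its difference of -1.99 ± 0.34 again had the smallest adjusted p of the genes (0.00962). Itgae was at 11, 7, 22.6, 15.8 and 23.1 CPM in sham and at 4.6, 1.7, 4.7, 6 and 1.9 CPM in RYGB, and differed by -1.81 ± 0.35 (adjusted p = 0.0143).

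Of the other lymphocyte genes in the ileum, Ccl5 differed by -1.94 ± 0.39, Cd7 by -1.83 ± 0.34, Nkg7 by -1.41 ± 0.27 and Cd160 by -0.89 ± 0.21, with adjusted p between 0.0113 and 0.027. Klrd1 was at 3.1, 1.5, 3.9, 4.8 and 6.4 CPM in sham and at 1.1, 0.5, 2.3, 1.6 and 0.6 CPM in RYGB. The lowest sham library was below 2 of the RYGB libraries, and the difference was -1.13 ± 0.30 (adjusted p = 0.0404). Sham replicate 5 was highest and sham replicate 2 lowest of the sham group in all 9 genes, so the genes followed each other from library to library also within a group. Leaving out any 1 library kept Gzma, Itgae, Cd7, Cd8a, Nkg7 and Ccl5 called, while Klrd1, Cd160 and Gzmb lost their call in some of these fits. The count was lowest, at 6, without sham replicate 3 and without sham replicate 5.

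In the duodenal villi the lymphocyte genes differed in the opposite direction and none was called. All 9 differences were positive, from 1.01 for Gzma to 1.62 for Cd8a, and their median was 1.34, against 0.12 over all genes. Adjusted p ran from 0.15 to 0.308, and 0% of the 10850 genes tested there were called higher. At an unadjusted p under 0.05, 8 of the 9 were higher, where 15% of all genes were. RYGB means were 2.02 to 3.3 times those of sham. Scaling each library by its median ratio to the others brought the median of all genes from 0.12 to 0.00 and left the 9 differences between 0.88 and 1.5.

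Gzma was at 59.3, 27.2, 24.8 and 78.6 CPM in the duodenum of sham mice and at 144.1, 45.1 and 97.9 CPM after RYGB. The difference of 1.01 ± 0.49 had an adjusted p of 0.308, the largest among the 9 genes. Cd8a was at 7.1, 4.8, 4.9 and 20.2 CPM in sham and at 37.8, 17.5 and 26 CPM in RYGB, a difference of 1.62 ± 0.46 with an adjusted p of 0.151. None of the 9 genes had every RYGB library above every sham library, against 12.7% of all genes. For each of the 9 genes 2 of the 3 RYGB libraries lay above the highest sham library. How many of all genes had this looser pattern was not counted. Sham replicate 4 was the highest sham library and RYGB replicate 2 the lowest RYGB library in all 9, so the 9 genes repeat 1 pattern of libraries. Itgae was at 5.5, 4.7, 4.1 and 14.5 CPM in sham and at 30.2, 11.7 and 18.6 CPM in RYGB, and Ccl5 at 3.5 to 17.7 and 12.9 to 30.2 CPM, with adjusted p of 0.161 and 0.205. Nkg7 had the smallest adjusted p (0.15), at 1.9, 0.9, 1.3 and 5 CPM in sham and 10, 4.4 and 8.1 CPM in RYGB. Without sham replicate 4, 7 of the 9 genes were called higher, where 5.03% of 10854 genes were, and Gzma and Gzmb were the exceptions. Without any other single library none was called.

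**Figure D2:**
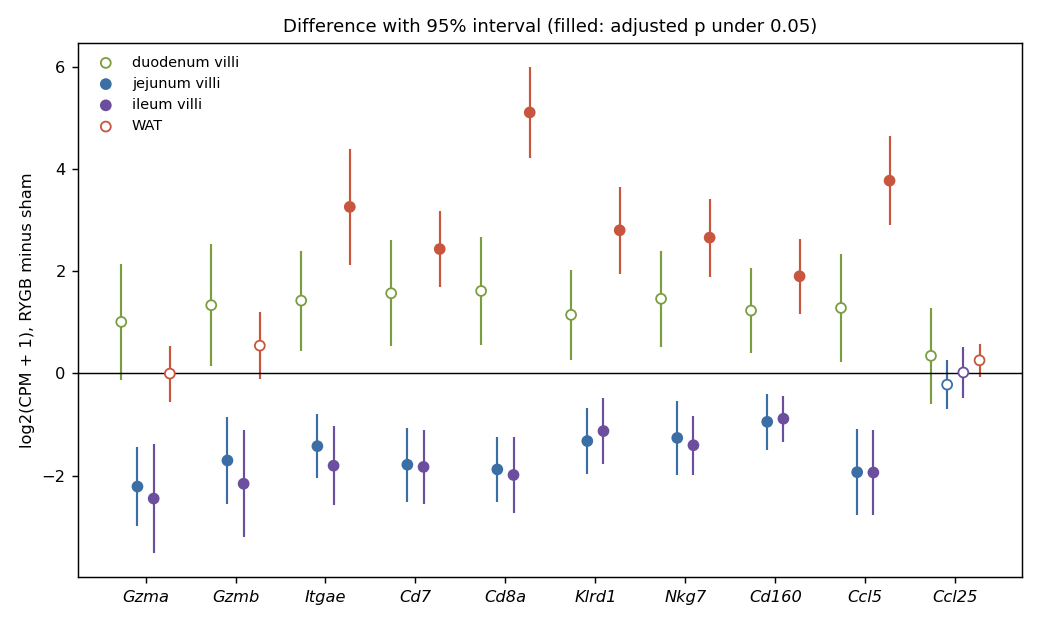
Differences of the 10 genes, RYGB minus sham on the log2(CPM + 1) scale, with 95% intervals from the fit of each tissue, filled where the adjusted p was under 0.05. The 9 lymphocyte genes lie below 0 in the jejunum and ileum and above 0 in the duodenum, where no point is filled, and 7 of them lie above 0 with filled points in WAT.

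The marker genes of other cell types moved with these results in part. In the jejunum the summed enterocyte markers were at 36310 to 49360 CPM in sham and 32440 to 48320 CPM in RYGB, with 1 of 10 genes called (Lct, lower). Markers of Paneth cells and the crypt summed to 20.4 to 67.3 CPM in sham and 108.4 to 219 CPM in RYGB, and 4 of 9 rose (Mmp7, Lyz1, Defa30 and Defa24). Macrophage markers of the jejunum summed to 18.2 to 29.6 CPM in sham and 35.2 to 38.7 CPM in RYGB, with none of 3 called, and the 1 neutrophil marker tested there, Ltf, rose by 1.71 (adjusted p = 0.026). In the ileum the enterocyte markers summed to 31030 to 37450 CPM in sham and 40190 to 47270 CPM in RYGB, and the crypt markers to 29.6 to 87.5 and 48.8 to 175.6 CPM, with none of the 9 called. Of the 10 enterocyte markers of the ileum 1 was called higher and 1 lower. In the duodenum the crypt markers summed to 40 to 73.5 CPM in sham and 102.5 to 261.7 CPM in RYGB, the macrophage markers to 12.5 to 19.9 and 20.8 to 41.7 CPM, and the mast cell markers to 1.6 to 6.6 and 8.2 to 16.3 CPM. All 9 crypt, 5 macrophage and 2 mast cell genes tested in the duodenum had positive differences and none was called. The 2 fibroblast genes tested there, Col3a1 and Col1a2, summed to 0.8 to 8.2 CPM in sham and 6.5 to 14.3 CPM in RYGB. Both differences were positive and neither was called. The 1 neutrophil marker tested there, Ltf, differed by -0.67 and was not called. The enterocyte markers of the duodenum summed to 29800 to 46150 CPM in sham and 27470 to 30240 CPM in RYGB. Of these 10 genes 4 had positive differences and none was called. None of the 10 B cell markers was listed in any villus table. The part of these cells in the results on the lymphocyte genes was not tested. Nor were the higher calls of the jejunum compared with the share of all genes called higher there.

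The ratios of most lymphocyte genes to CD3 overlapped between the surgery groups of the villi. The summed level of Cd3e and Cd3g, which encode CD3 chains carried by all T cells, was at 14.1 to 24.8 CPM in the jejunum of sham mice and at 3 to 5.5 CPM after RYGB. The ratio of Gzma to this sum had a median of 4.97 in sham and 4.7 in RYGB, and that of Cd8a a median of 0.882 and 0.947. For 8 of the 9 genes the ratios of sham and RYGB overlapped, and for Cd160 they were all higher after RYGB, as they were for 91.7% of all genes in the jejunum. In the ileum the ratios of all 9 genes overlapped, where 70.4% of all genes had higher ratios in every RYGB library. In the duodenum 8 overlapped, and for Cd7 the lowest RYGB ratio was level with the highest sham ratio, both at 1.11. Higher ratios in every RYGB library were found for 0.147% of all genes there. The ratio of Gzma to Gzmb overlapped between the groups as well. Its median was 2.48 and 1.89 in the duodenum, 3.09 and 1.9 in the jejunum and 1.88 and 1.48 in the ileum for sham and RYGB, with overlapping ranges in each.

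**Figure D3:**
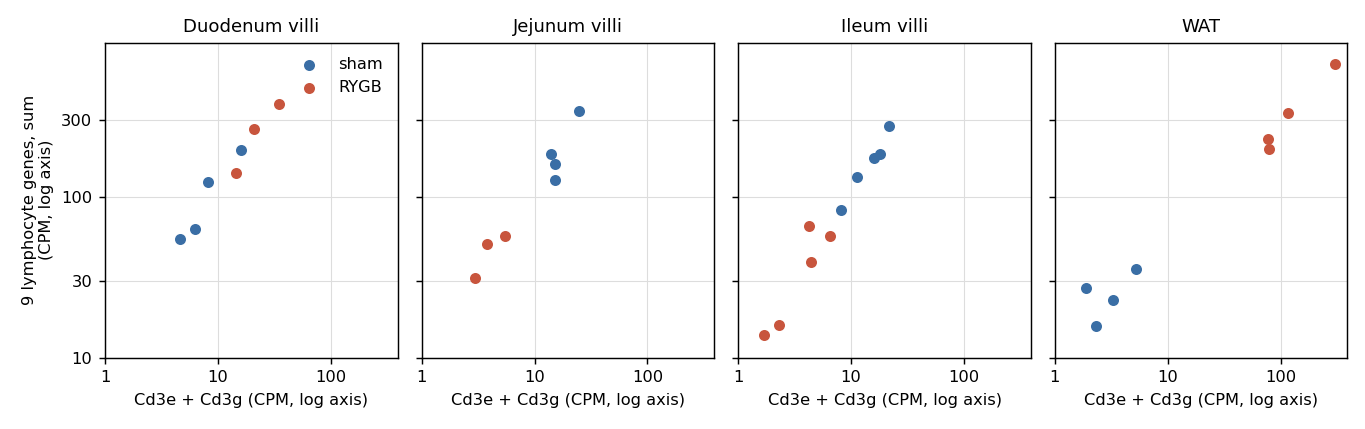
Sum of the 9 lymphocyte genes against the sum of Cd3e and Cd3g in every library of the villi and WAT, both in CPM on log axes, for sham (blue) and RYGB (red). The villus libraries of both groups lie along a common band, and the RYGB libraries of WAT lie at 77.6 to 301.9 CPM of Cd3e and Cd3g, above the sham libraries at 1.9 to 5.2 CPM.

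Among 10359 other genes tested in all 3 villus tables, the 5 with a pattern most like that of the 9 genes were Prkch, Gimap4, Selplg, Sh2d2a and Evl. Likeness was the lowest of the 3 Pearson correlations of a gene with the mean of the 9 over the 7, 7 and 10 libraries of duodenum, jejunum and ileum, and it was 0.985, 0.981, 0.971, 0.968 and 0.964. The correlations are over libraries that share the surgery and the scaling to CPM, and are given as a description. Prkch, which encodes protein kinase C eta, was at 4.38 CPM in the jejunum of sham mice and 1.3 CPM after RYGB, at 4.48 and 1.04 CPM in the ileum and at 2.38 and 6.53 CPM in the duodenum. Gimap4, a GTPase of lymphocytes, was at 9.13 and 2.77 CPM in the jejunum, 10.1 and 2.9 CPM in the ileum and 5.6 and 15.4 CPM in the duodenum.

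Ccl25, the chemokine with which the small intestinal epithelium attracts cells that carry Ccr9, did not pass the test in any tissue. In the jejunum it was at 301.6, 365.1, 428.4 and 522.1 CPM in sham and at 376.6, 286.7 and 365.3 CPM in RYGB, a difference of -0.22 with a 95% interval of -0.69 to 0.25. In the ileum sham was at 365.1, 480.7, 419.9, 313.9 and 339.8 CPM and RYGB at 298.7, 333.8, 261.8, 528.7 and 610.7 CPM, and the difference was 0.02 with an interval of -0.47 to 0.51. The RYGB libraries of the ileum thus lay on both sides of the sham range. In the duodenum the sham libraries spread from 126.1 to 468.3 CPM while the RYGB libraries lay between 359.3 and 384.1 CPM, and the interval of the difference of 0.35 ran from -0.60 to 1.29. The correlation of Ccl25 with the mean of the 9 lymphocyte genes was 0.305, 0.528 and -0.217 in the duodenum, jejunum and ileum. Its receptor Ccr9 fell by 0.77 in the ileum (SE 0.16, adjusted p = 0.0176), from 2.12 ± 0.61 (SD, n = 5) to 0.82 ± 0.24 CPM (SD, n = 5). The ileal RYGB mean of Ccr9 was under 1 CPM, so its place in that table rests mainly on the sham libraries. Ccr9 differed by -0.56 in the jejunum (adjusted p = 0.155) and 0.84 in the duodenum (adjusted p = 0.242).

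**Figure D4:**
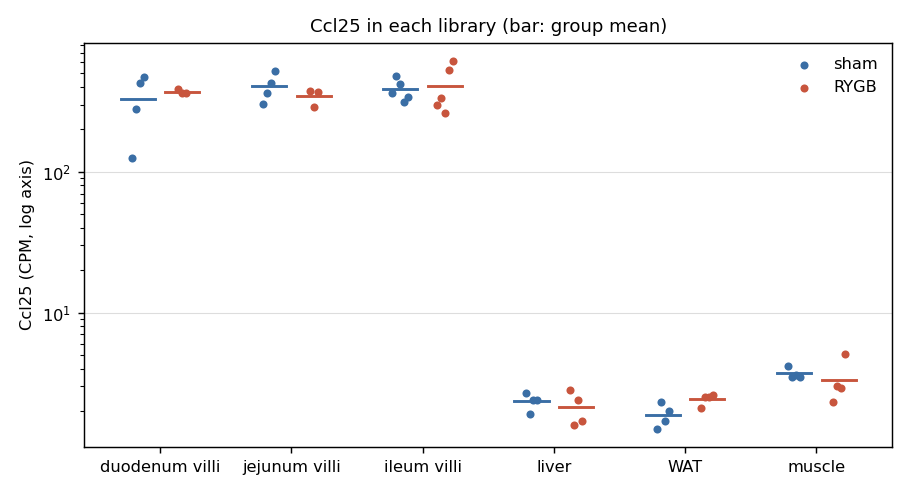
Ccl25 in CPM on a log axis in every library of the 6 tissues for sham (blue) and RYGB (red), with a bar at each group mean. The 3 villus tissues lie between 126.1 and 610.7 CPM and the other tissues between 1.5 and 5.1 CPM, and sham and RYGB points overlap in each tissue.

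Set per kilobase of annotated exon, the mean level of Gzma was the highest of the 10 genes in the sham group of each part of the gut. This order rests on the exon lengths, since Ccl25 has 7445 annotated exon bases and Gzma 1006, and without the division Ccl25 was the higher one in the jejunum (404.3 against 91.4 CPM in sham). In the jejunum of sham mice Gzma stood at 90.8 ± 52.6 CPM per kb, followed by Ccl25 (54.3 ± 12.6), Ccl5 (22.7 ± 13.5), Gzmb (20 ± 8.09) and Cd7 (17.1 ± 7.68), and Cd160 was lowest at 1.07 ± 0.29 (SD, n = 4). The neighbours Gzma and Ccl25, and the 3 genes Ccl5, Gzmb and Cd7, did not differ beyond their spread. After RYGB the order in the jejunum was led by Ccl25 at 46.1 ± 6.58 CPM per kb, with Gzma second at 17 ± 3.44 (SD, n = 3). In the ileum the sham means were within their spread, with Gzma at 56.2 ± 24.8 and Ccl25 at 51.6 ± 8.98 CPM per kb in sham and at 11 ± 8.05 and 54.6 ± 20.6 in RYGB (SD, n = 5). In the duodenum Gzma and Ccl25 stood at 47.2 ± 25.9 and 43.8 ± 21 CPM per kb in sham (SD, n = 4). After RYGB the mean of Gzma stayed the higher one, at 95.1 ± 49.2 and 49.6 ± 1.76 CPM per kb (SD, n = 3). In both groups the mean of Ccl25 lay within the spread of Gzma.

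Other genes of the T cell receptor were called in the jejunum and ileum as well. In the jejunum 4 of the 7 tested fell (Cd3g, Cd3e, Lck and Cd3d) and the median difference of the list was -1.11. In the ileum 4 of 7 fell (Cd3e, Lck, Cd3g and Zap70) with a median of -1.14. In the duodenum none of 8 was called, 7 had positive differences and the median was 1.22. Cd3e, the epsilon chain of CD3, went from 8.35 ± 1.78 (SD, n = 4) to 2.13 ± 0.68 CPM (SD, n = 3) in the jejunum, a difference of -1.58 ± 0.23 (adjusted p = 0.0037), and from 7.74 ± 2.71 to 1.88 ± 0.98 CPM (SD, n = 5) in the ileum, a difference of -1.61 ± 0.27 (adjusted p = 0.00878).

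Of the genes for granule content, 1 of 7 was called in the jejunum and 2 of 6 in the ileum. Ctsw, a protease of cytotoxic cells, fell in both, by 1.22 and by 1.48. Srgn, the proteoglycan that packs granule contents, fell by 1.22 in the ileum (adjusted p = 0.00878) and differed by -0.83 in the jejunum (adjusted p = 0.0749). Genes of this list that many cells express, such as Lamp1 and Ctsc, were not called in either. Of the killer-cell receptors and their factors, 2 of 5 fell in the jejunum (Cd244a and Fcer1g) and 3 of 4 in the ileum (Cd244a, Runx3 and Fcer1g). Runx3, a factor that shapes CD8 T cells, was at 2.78 ± 1.23 and 0.78 ± 0.38 CPM in the ileum (SD, n = 5). The difference was -1.05 ± 0.24 there (adjusted p = 0.0225) and -0.63 in the jejunum (adjusted p = 0.125). The ileal RYGB mean of Runx3 was under 1 CPM, so its place in that table rests mainly on the sham libraries.

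The signals that keep these cells in place gave a mixed result. Il2rb, the receptor chain through which lymphocytes take up interleukin-15, fell in the jejunum by 1.23 (adjusted p = 0.0289) and in the ileum by 1.72 (adjusted p = 0.02). In the ileum Bcl2 and Il2rg of the same list fell as well, which made 3 of 10. In the jejunum Socs1, a feedback inhibitor of cytokine receptors, rose by 1.75, so that 1 of 10 rose and 1 fell. Il15 itself was at 41.8 ± 12.9 (SD, n = 4) and 18.4 ± 9.1 CPM (SD, n = 3) in the jejunum and fell by 1.18 (adjusted p = 0.0475). It was 1 of 2 epithelial ligands that fell there, while 6 of 20 rose, among them the chemokines Ccl20, Ccl28 and Cxcl16. Higher calls in the jejunum, in this and the other lists, were not compared with the share of all genes called higher there. Ccl20 was uneven, at 18.3 to 896.7 CPM in the 3 RYGB libraries and 0.2 to 10.1 CPM in the 4 sham libraries. In the ileum 3 of 20 fell, all of them recognition molecules (Btnl4, H2-T23 and Btnl6). None of the 20 was called in the duodenum.

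Of the homing genes, 3 of 7 fell in the ileum. These were Itgb7, which encodes the partner chain of Itgae, Gpr18 and Ccr9. Itgb7 differed by -1.24 ± 0.32 in the ileum (adjusted p = 0.0383), by -0.67 in the jejunum (adjusted p = 0.203) and by 1.23 in the duodenum (adjusted p = 0.145). Gpr55, a receptor for lysophospholipids, rose in the jejunum by 1.84 (adjusted p = 0.00664), from 3.2 ± 0.67 (SD, n = 4) to 15.1 ± 7.02 CPM (SD, n = 3), and was the only one of 7 called there.

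In WAT 7 of the 9 lymphocyte genes rose after RYGB and the granzymes were the exceptions. Higher calls made up 23.5% of the 13379 genes tested in WAT, and 26.1% of all genes had no RYGB library at or under the highest sham library, as the 7 genes had. The median difference of the 9 genes was 2.66, against 0.11 over all genes. The 7 genes were called whichever single library was left out.

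Cd8a was at 1.9, 1.3, 1.3 and 3 CPM in the sham libraries of WAT and at 61, 70.6, 85.2 and 230.8 CPM in the RYGB libraries. The difference of 5.12 ± 0.39 (adjusted p = 9.23e-05) was the largest of the 10 genes in any tissue, and RYGB replicate 4 was highest. Ccl5 was at 7.1, 7, 4.5 and 12.3 CPM in sham and at 96.6, 57.9, 144.2 and 200.6 CPM in RYGB, a difference of 3.78 ± 0.39 (adjusted p = 0.000381). Itgae rose by 3.26 (SE 0.50), from 1.3 to 4.9 CPM in sham to 17.3 to 89.7 CPM in RYGB. Klrd1 (2.81), Nkg7 (2.66), Cd7 (2.44) and Cd160 (1.91) rose by less, with adjusted p of 0.00414 or lower. Cd160 had a mean of 0.45 CPM in sham, so its place in the table rests on the RYGB libraries.

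Gzma was at 5.3, 3.4, 2 and 4.4 CPM in sham and at 2.8, 3.4, 4.8 and 3.6 CPM in RYGB, and the 2 groups lay in the same range. Its difference was 0.00 to 2 decimals, with a 95% interval of -0.55 to 0.55 (adjusted p = 0.995). Gzmb was at 1.2, 1.5, 1.2 and 2.3 CPM in sham and at 1.6, 1.9, 2.7 and 5.5 CPM in RYGB, with a difference of 0.55 and an interval of -0.12 to 1.21 (adjusted p = 0.161). With lane as a factor the difference of Gzmb was 0.65 and passed (adjusted p = 0.0448). The ratio of Gzma to Cd8a within a library was 1.47 to 2.79 in sham and 0.0156 to 0.0563 in RYGB. In the villi of the RYGB group this ratio was 1.68 to 6.71, taken over the 3 tables. It overlapped between the groups in the jejunum and ileum. In the duodenum it was lower in every RYGB library (2.58 to 3.81) than in sham (3.89 to 8.35), by a narrow gap. How many of all genes had ratios to Cd8a that separated in this way was not counted. Cd8a itself rose in WAT, so a gene without a change would also have a lower ratio there. Against Cd3e plus Cd3g, 7 of the 9 genes had lower ratios in every RYGB library of WAT, as 97.7% of all genes had, and those of Itgae and Cd8a overlapped between the groups. Ccl25 was at 1.5 to 2.3 CPM in sham and 2.1 to 2.6 CPM in RYGB and was not called (0.26, adjusted p = 0.177).

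**Figure D5:**
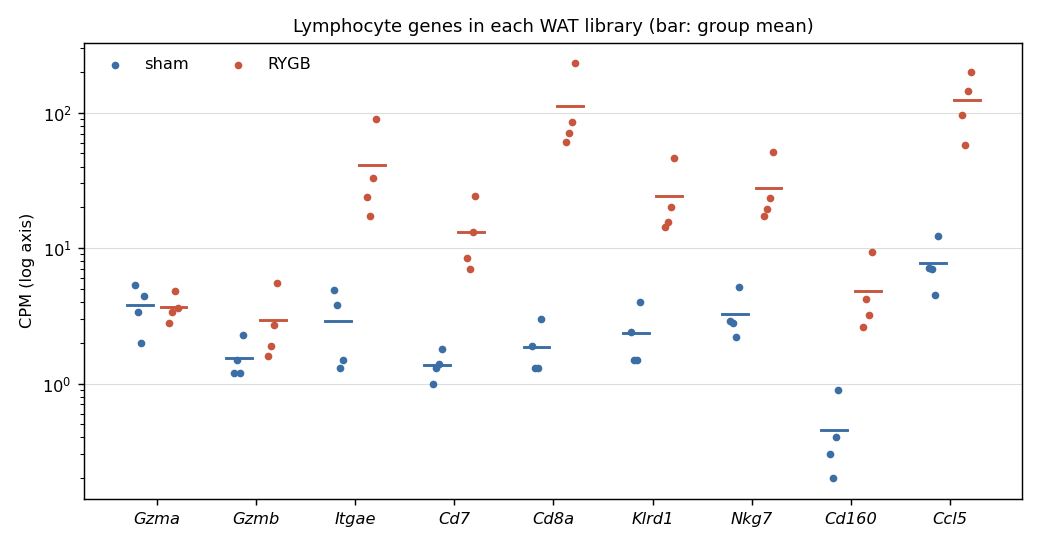
CPM of the 9 lymphocyte genes on a log axis in every WAT library of the sham (blue) and RYGB (red) groups, with a bar at each group mean. Gzma and Gzmb overlap between the groups, while the RYGB points of the other 7 genes lie above all sham points.

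Other lymphoid genes rose in the same WAT libraries. All 17 genes tested of the T cell receptor list rose, with a median of 4.39, among them Cd8b1 (4.79), the beta chain of CD8. All 10 B cell markers rose, and their sum went from 14.2 to 27 CPM in sham to 1133 to 3050 CPM in RYGB. Of the markers of naive T cells and lymph nodes, 7 of 8 rose, with a sum of 35.5 to 68.6 CPM in sham and 509.5 to 2023 CPM in RYGB. Glycam1, a ligand made by the high endothelial venules of lymph nodes, had a mean of 0.075 CPM in sham and 73.6 CPM in RYGB. Its place in the table rests on the RYGB libraries. Macrophage markers summed to 1711 to 2722 CPM in sham and 929.3 to 1727 CPM in RYGB, and 5 of 10 fell. Adipocyte markers summed to 13370 to 19920 CPM in sham and 6342 to 11910 CPM in RYGB, and 1 of 5 fell (Lep). Lower calls in WAT were not compared with the share of all genes called lower there. The part of lymph node tissue and of the other cell types in the WAT values was not tested. Prf1, the pore-forming protein of the same granules as the granzymes, rose by 1.64 (adjusted p = 0.00923). Of the 13 granule genes tested, 7 rose, Prf1 among them, and 1 fell.

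In the liver Ccl5 was at 0.7 to 1.2 CPM in the 4 sham libraries and at 1.4 to 4.3 CPM in the 4 RYGB libraries. Its sham mean was 0.975 CPM, so its place in the table rests on the RYGB libraries. The 2 groups did not overlap, and RYGB was the higher one in the same way in 13.4% of the 11807 genes tested, but the difference of 0.82 ± 0.23 had an adjusted p of 0.0509 and was not called, where 7.03% of genes were called higher. Without RYGB replicate 4 it passed, with an adjusted p of 0.0235. Of 7 neutrophil markers 4 rose in the liver, and their sum was 12.3 to 20.8 CPM in sham and 41.5, 658.7, 96.2 and 41.6 CPM in RYGB. Of the macrophage markers 2 of 10 rose in the liver (321.1 to 553.9 CPM in sham and 547.5 to 1356 CPM in RYGB, summed), and of the fibroblast and smooth muscle markers 3 of 9 (275 to 381.1 and 406.2 to 814 CPM). The T cell receptor list summed to 13.9 to 21.1 CPM in sham and 9 to 14.4 CPM in RYGB, with 1 of 4 differences positive and none called. Of the killer-cell receptors and their factors 1 of 3 rose (34.9 to 47.1 and 51.3 to 136.9 CPM). Of the granule genes, a list that includes genes expressed by many cells, 2 of 8 rose (932.4 to 1169 and 1344 to 1567 CPM). Gzma and Gzmb were not listed in the liver. The part of any of these cells in the level of Ccl5 was not tested. Ccl25 differed by -0.11 in the liver (adjusted p = 0.696) and by -0.16 in muscle (adjusted p = 0.75), where 0% of the 11966 genes tested were called and 14.6% had an unadjusted p under 0.05.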

How the data were processed

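Villi of the duodenum, jejunum and ileum, liver, subcutaneous WAT and gastrocnemius muscle were profiled by stranded mRNA sequencing in 48 libraries. The authors deposited CPM rounded to 0.1 for each tissue. The submitters' processing notes name HTSeq and the GRCm38 build, and the aligner and annotation are not given in the sources used here. The deposited columns of the jejunum and ileum and of liver sham replicate 4 were recorded as a score, because repeated gene lines raise their sums above the CPM total or, in liver, lines are incomplete, and they were used as CPM. In the liver 12 incomplete lines were left out. Members were matched by symbol and other genes by Ensembl ID where a spreadsheet had damaged the symbol.

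Genes whose mean reached 1 CPM were tested with limma 3.58.1 in R 4.3.3 on log2(CPM + 1), with 1 fit for each tissue, empirical Bayes with a trend, and p-values adjusted over all genes of the tissue by Benjamini and Hochberg. Sums, ratios and plots were made in Python 3.11.15 with pandas 2.3.3, numpy 2.4.6, scipy 1.17.1 and matplotlib 3.10.9. The steps were tested on simulated data. The members and the gene lists were chosen with earlier results of these data known. The text names the 10 members, up to 5 genes of each list and tissue, called ones first and by size of the difference, and the 5 genes most like the members. Alternatives were another pseudocount, minimum, scaling, trend, call rule, lane as a factor, the replicate number as a block, and leaving out each library. The depth of each library is unknown, so no counting error is given.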

Additional observations from a re-analysis of the deposited data

Results flagged for a closer look

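Ccl25 in muscle had 1 sham library apart from the other 3. Sham replicate 1 was at 4.2 CPM, and its gap to the next library took a share of 0.848 of the range of the group. Of 66 groups of values examined in this way this was the only one, where chance gives about 1 in 20.

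Several lymphocyte genes had every RYGB library above every sham library in WAT and every one below in the jejunum or ileum. These differences between tissues were not tested, since each table was normalised on its own. On the log2 scale the WAT difference exceeded that of the jejunum by 7.0 for Cd8a, 5.71 for Ccl5, 4.69 for Itgae, 4.23 for Cd7, 4.13 for Klrd1, 3.93 for Nkg7 and 2.85 for Cd160. It exceeded that of the ileum by 7.10 for Cd8a, 5.72 for Ccl5, 5.07 for Itgae, 4.27 for Cd7, 4.07 for Nkg7 and 2.79 for Cd160. For Ccl5 the liver also differed from the jejunum by 2.76 and from the ileum by 2.76, again without a test.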

How the results depend on the processing

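Of the 10 genes, the count called in the duodenum went from 0 to 6 with the replicate number as a block and to 8 at an unadjusted p under 0.05, and ran from 0 to 7 when 1 library was left out, with 7 without sham replicate 4. In the jejunum the count of 9 became 5 of 6 tested at a mean of at least 10 CPM and 6 with lane as a factor, and ran from 5 (without RYGB replicate 1) to 9. In the ileum the count of 9 became 5 of 6 tested at 10 CPM and 8 with median-ratio scaling, and ran from 6 (without sham replicate 3 or 5) to 9. In the liver the count of 0 became 1 (Ccl5) with a pseudocount of 0.1 CPM, without a trend, with the block and at an unadjusted p, and ran from 0 to 1, with 1 without RYGB replicate 4. In WAT the count of 7 held without each library and became 8 with lane as a factor, through Gzmb. Fewer genes were tested at 10 CPM. The cause of the other changes was not tested.

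Correlations of same-numbered libraries ran from -0.281 to 0.389, and no tissue had all above 0.1. With so few libraries in a tissue they cannot decide whether equal replicate numbers pair the libraries. The replicate block gave 7 calls in the jejunum, 8 in the ileum and 7 in WAT. In the duodenum sham replicate 4 has no partner, so that the block difference equals the one without it.

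Among differences near 0, Ccl25 in the duodenum ran from -0.053 (without sham replicate 1) to 0.575 (without sham replicate 4). Ccl25 in the ileum ran from -0.15 to 0.16, with -0.05 and -0.02 without sham replicates 4 and 5 and -0.09 and -0.15 without RYGB replicates 4 and 5. Gzma in WAT was 0.011 with a pseudocount of 0.1 CPM and ran from -0.21 to 0.15, with 0.15 and 0.07 without sham replicates 1 and 4 and 0.09 and 0.02 without RYGB replicates 1 and 2.

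Over all genes the count called in the duodenum went from 1 to 268 with the block and 778 without sham replicate 4. It fell from 1065 to 675 (10 CPM), 469 (lane) and 462 (without RYGB replicate 2) in the jejunum, and from 856 to 531 (10 CPM) and 336 (without sham replicate 3) in the ileum. In the liver it went from 1016 to 1776 with the block and to 345 without RYGB replicate 3, in WAT from 4980 to 3106 without sham replicate 4, and in muscle from 0 to 2 with scaling, 199 with the block and 251 without RYGB replicate 4. Rounding to 0.1 CPM limits genes near 1 CPM, such as Cd160.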
